A study of Mus musculus with 4 samples.

Results

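Of the 19465 genes measured, 9 are described here as B cell and plasma cell genes: Cd79a, Cd79b, Ms4a1, Cd22, Jchain, Mzb1, Ltb, Cxcl13 and Cr2. They were chosen by their symbol in the gene list of the assay, and all 9 were present. Their unique molecular identifiers (UMIs, the counted probe molecules) were taken from a PT (primary tumour) section and a lung section from each of 2 BALB/c mice, named A and B here by the rank of their numbers. At 8 weeks of age each mouse received 100000 cells of 4T1, a mouse mammary carcinoma line, into the mammary fat pad, and both tissues were collected 28 days later. All sections therefore come from tumour-bearing animals, the tumour is that of 1 cell line, and no lung without tumour cells was measured. The 4 µm sections of formalin-fixed, paraffin-embedded tissue were profiled with Visium, in which pairs of gene-specific probes are captured on a grid of barcoded spots. Each spot covers a small area of tissue, so its counts can mix cells of several types.

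B cells recognise antigen through a membrane immunoglobulin that signals through CD79A and CD79B, and the co-receptors CR2 and CD22 raise or damp that signal. When B cells become plasma cells they secrete immunoglobulin, and the J chain joins IgM and dimeric IgA into polymers. In chronically inflamed tissue, lung included, B cells can gather in lymphoid aggregates, for which lymphotoxin and the chemokine CXCL13 are organising signals. Among the 9 genes, Cd79a and Cd79b encode the signalling chains of the receptor, Ms4a1 encodes CD20, Cd22 an inhibitory co-receptor, and Cr2 the complement receptor that B cells and follicular dendritic cells carry. Jchain encodes the J chain and Mzb1 a chaperone of immunoglobulin in the endoplasmic reticulum. Ltb encodes lymphotoxin beta, which many lymphocytes make, and Cxcl13 a chemokine that draws B cells through CXCR5.

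In GENCODE vM21 on GRCm38 (the build also called mm10), Cr2 lies at chr1:195136811-195176716 on the minus strand and Cd22 at chr7:30865402-30880342 on the minus strand. Cd79a lies on the plus strand of the same chromosome as Cd22, at chr7:24897381-24902197. Jchain (chr5:88519809-88527891, minus strand) and Cxcl13 (chr5:95956951-95961068, plus strand) also share a chromosome. Cd79b is at chr11:106311341-106314762 (minus strand), Ltb at chr17:35194439-35196320 (plus strand) and Ms4a1 at chr19:11249675-11266241 (minus strand). RefSeq promoters on GRCm38.p6 were matched for 6 of the 9 members, and 5 are shown. A promoter that overlaps an annotated exon of its gene was shown only if it held a match to the letters below. That of Cd79a was left out by this rule, so the choice depends in part on the matches. The 5 belong to the receptor arm (Cd22, Cr2), the secretory arm (Jchain) and the organising signals (Ltb, Cxcl13). Each line gives the 130 bases before the RefSeq start, or for Ltb, whose promoter overlaps an annotated exon, a stretch of 30 bases around the match. Capitals mark matches, on either strand, to CCCNNGGGA, the palindromic core of early B cell factor sites, or to GGG and CCC with 5 or 4 bases of any kind between them, the outer bases of kappa-B type sites.
Cd22, chr7:30879029-30879158, minus strand: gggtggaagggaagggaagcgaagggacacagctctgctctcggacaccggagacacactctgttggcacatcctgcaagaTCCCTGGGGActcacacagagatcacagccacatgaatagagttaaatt
Cr2, chr1:195176720-195176849, minus strand: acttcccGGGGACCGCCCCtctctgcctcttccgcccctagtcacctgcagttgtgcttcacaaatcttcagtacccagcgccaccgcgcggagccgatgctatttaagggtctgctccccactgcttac
Jchain, chr5:88527898-88528027, minus strand: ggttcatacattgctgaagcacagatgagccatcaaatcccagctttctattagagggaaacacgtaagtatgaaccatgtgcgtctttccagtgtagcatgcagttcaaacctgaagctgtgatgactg
Ltb, chr17:35194457-35194486, plus strand: cgggggtgggGGGGTCTACCCCtgaggtat
Cxcl13, chr5:95956809-95956938, plus strand: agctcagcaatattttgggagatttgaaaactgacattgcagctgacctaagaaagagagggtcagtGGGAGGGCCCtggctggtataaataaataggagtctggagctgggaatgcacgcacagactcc

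Cd22 held the early B cell factor core, matched on both strands of 1 palindrome. Of 32851 RefSeq promoters 2.93% held this core in their last 130 bases and 5.60% in 250 bases. Kappa-B type letters were found upstream of Cr2, Ltb and Cxcl13, and the matches at Cr2 and Ltb overlap one another. The form with 5 bases in the middle was present in 7.70% of promoters in 130 bases and in 12.2% in 250 bases, and the form with 4 in 6.11% and 10.3%. The promoters of Jchain and Cd79a, the latter not shown, held none of these letters in the 250 bases searched, so that 4 of the 6 promoters had a match. These matches describe letters and are not evidence of binding.

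Depth differed between the sections. Spots with over 200 genes were kept, which left 9339 of 9445 spots, and the 106 spots left out, all from the PT of mouse A, held 2 UMIs of the members. The kept spots numbered 1697 in the lung of mouse A, 2780 in that of mouse B, and 2490 and 2372 in the PTs. Their totals ranged from 10890154 to 30240176 UMIs and their median depth from 1820 UMIs per spot in the PT of mouse B to 9174.5 in the lung of the same mouse. As a check of the labels, the 9 alveolar markers tested were all called higher in the lungs, and the carcinoma markers took 4294 and 4948 CPM (UMIs per 1000000 UMIs of the section) in the PTs. The lung of mouse B also held 1224 CPM of carcinoma markers against 117 CPM in that of mouse A. The PT of mouse B stood apart in the counts of the 1178 olfactory and vomeronasal receptor genes, which were used as the background level: 42.5 UMIs per spot fell on them there, against 4.72 in the other PT and 1.59 and 1.99 in the lungs.

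Both lungs held all 9 members above this background. In each lung every member exceeded the 95th percentile of receptor genes, which was 0.539 CPM in mouse A and 0.397 CPM in mouse B. In the PT of mouse A the same percentile was 1.70 CPM, and Ltb, Cd22, Cd79b and Cr2 were above it. In the PT of mouse B it was 19.0 CPM, and only Cr2 and Ltb exceeded it. The other 7 members are therefore read in that section as background and not as expression. All intervals below are exact 95% intervals and cover counting error only, and in bulk sums such as these fewer cells of a type and less RNA per cell cannot be told apart.

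Among the receptor chains, Cd79a stood at 49.2 CPM (547 UMIs, interval 45.1 to 53.5) in the lung of mouse A, and at 6.15 CPM (186 UMIs, 5.30 to 7.10) in the lung of mouse B. In the PTs it was at 0.887 CPM (12 UMIs) and 6.98 CPM (76 UMIs). The lung of mouse A was thus far above the other sections, whereas the lung of mouse B lay just below a PT value that is itself within background. Cd79b followed the same order, with 42.9 and 6.12 CPM in the lungs and 2.51 and 7.16 CPM in the PTs.

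For the surface molecules, Ms4a1 reached 19.5 and 2.78 CPM in the A and B lungs, against 1.55 and 9.27 CPM in the PTs. Cd22 was at 13.1 and 4.33 CPM in the lungs and 3.18 and 5.51 CPM in the PTs. Both genes were highest in the lung of mouse A, and their lung values in mouse B lay between the PT values. Cr2 departed from this pattern, with 5.22 and 1.12 CPM in the lungs and 2.07 and 24.1 CPM in the PTs, so that the PT of mouse B was the highest section.

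The plasma cell genes were also highest in the lung of mouse A. Jchain was at 24.5 CPM there and at 3.87 CPM in the lung of mouse B, with 0.961 and 5.97 CPM in the PTs. Mzb1 was at 7.73 and 2.41 CPM in the lungs and at 0.296 and 2.66 CPM in the PTs. As for the receptor chains, the lung of mouse B did not exceed the PT of the same mouse.

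Of the organising signals, Ltb was by far the most abundant member, at 343 and 132 CPM in the lungs and 20.9 and 21.3 CPM in the PTs. Every lung value lay above every PT value. Cxcl13 showed no such separation, with 3.42 and 5.72 CPM in the lungs and 0.887 and 8.63 CPM in the PTs.

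**Figure D1:**
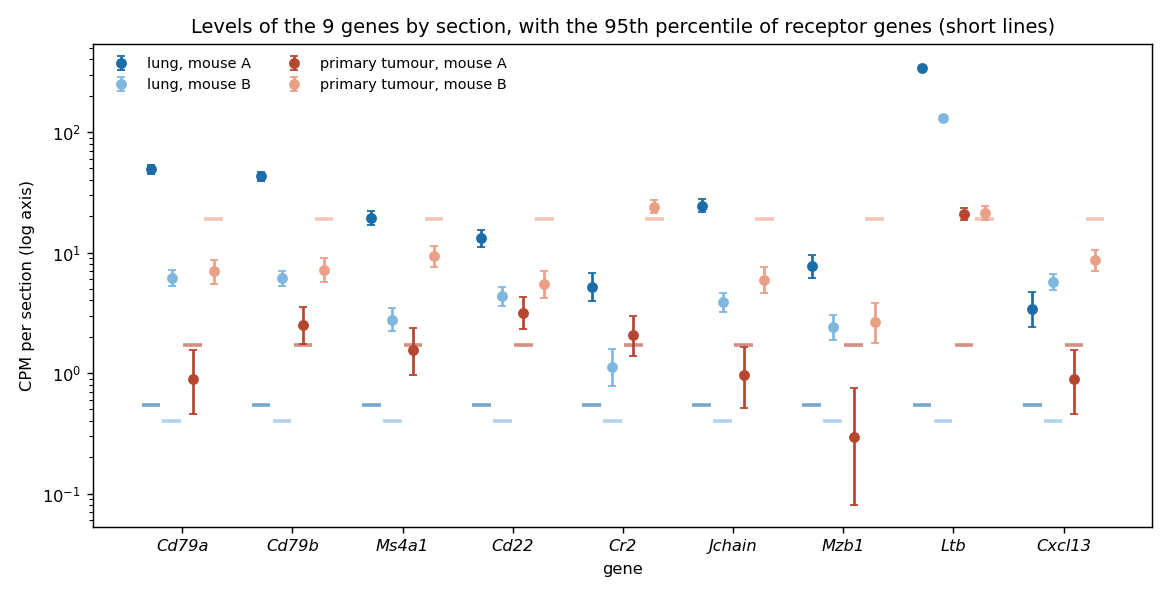
Level of each of the 9 genes in CPM (log axis) in each of the 4 sections, with exact 95% intervals for counting error. Short lines give the 95th percentile of the receptor genes in the same section, which every gene exceeded in both lungs and only Cr2 and Ltb exceeded in the PT of mouse B.

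In the PT of mouse B, Ltb was the member that rose with the depth of a spot. From the shallowest to the deepest 25% of spots all UMIs went from 1188 to 13268 per spot and Ltb from 0.0253 to 0.250 UMIs per spot. Over the same range Cd79a went from 0.0438 to 0.0287, Jchain from 0.0236 to 0.0219 and Cr2 from 0.132 to 0.0995 UMIs per spot. The mean receptor gene went from 0.0344 to 0.0321 UMIs per spot, so Cr2, although above the 95th percentile, behaved with depth like the receptor genes and unlike Ltb. Its level in this section is for this reason given without being read as expression. In the PT of mouse A all UMIs went from 378.9 to 14548 per spot and Cr2 from 0.01124 to 0.009646. Ltb went there from 0.009631 to 0.3135, Cd22 from 0.003210 to 0.03859 and Cd79b from 0 to 0.03055 UMIs per spot. The mean receptor gene went from 0.001893 to 0.004103. Cr2 did not rise with depth in that section either, and its level there is not read as expression.

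To ask whether these genes differed between the lungs holding metastases and the PTs, summed UMIs of the sections were compared by the quasi-likelihood test of edgeR with Benjamini-Hochberg adjustment (2 sections per tissue). Of 15267 genes tested, 1139 were called at an adjusted p under 0.05, which is 7.46%, and 6.31% were called higher in the lung. Of the members 1 of 9 was called, and 8 of 9 had a positive log2 fold change. Their median log2 fold change was 2.19, against -0.00 over all genes tested.

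Ltb rose in the lung, with 3.85 as its log2 fold change, 0.57 as the standard error and an adjusted p of 0.00718 by edgeR, and after subtraction of the receptor gene background, which left 98 genes called in all, its log2 fold change was 3.87 and its adjusted p 0.0709. It was the only member with both lungs above both PTs, an arrangement that 21.3% of all tested genes had. No member had both lungs below both PTs, which 37.8% of the tested genes had. For Cd79a the log2 fold change was 3.26 (standard error 1.09) and the adjusted p of edgeR 0.116. With the mouse as a block, which fits the fact that both tissues come from the same animals, Cd79a was called as well (log2 fold change 2.95, standard error 0.87, adjusted p = 0.00851 by edgeR), when 1817 genes (11.9%) were called in all and 9.17% were called higher. With the mouse numbers crossed between the tissues, edgeR called Cd79a too, with Cd79b, Jchain and Ltb, when 16.8% of genes were called. The call of Cd79a is therefore not particular to the pairing of the animals. DESeq2, which called 19.8% of the genes it tested, called Ltb, Cd79b and Jchain. Cd79b gave 2.77 (standard error 0.91, adjusted p = 0.110 by edgeR) and missed the threshold with the mouse as a block too, at an adjusted p of 0.0517.

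For Jchain the log2 fold change was 2.47, with a standard error of 1.08 and an adjusted p of 0.211 by edgeR, and for Mzb1 it was 2.19, with 1.44 and 0.408. The values of Ms4a1 and Cd22 were 1.48 and 1.39, with adjusted p-values of 0.467 and 0.397 by edgeR. None of these 4 passed the adjusted threshold of edgeR, although Jchain had an unadjusted p of 0.0471. For Cxcl13 the value was 0.26 (standard error 1.20, adjusted p = 0.936 by edgeR), and Cr2 was the only member with a negative value, at -1.63 (standard error 1.18, adjusted p = 0.459). After subtraction of the receptor gene background the fitted log2 fold changes of several members were larger, at 8.43 for Cd79a, 4.94 for Cd79b, 3.35 for Ms4a1, 2.99 for Cd22, 6.98 for Jchain, 9.46 for Mzb1 and 3.14 for Cxcl13. None was called by edgeR in that setting (adjusted p from 0.0870 for Cd79a to 0.400 for Cd22). The subtraction took the mean receptor gene count, 9.97 UMIs in the PT of mouse A and 85.6 in that of mouse B. Genes with fewer UMIs kept none. This held for Mzb1 in both PTs (4 and 29 UMIs). In the PT of mouse B it also held for Cd79a, Cd79b, Cd22 and Jchain (76, 78, 60 and 65 UMIs). The fold changes of these genes thus rest on a PT without counts, and their size is not read.

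For the B cell genes the values depend on the lung of mouse A. Each fit without a section leaves 1 sample in an arm, which is assumed to vary like the sections of the other tissue. Without that section the log2 fold change of Cd79a was 1.08 and that of Ms4a1 was -0.54, and Ltb alone remained called, when 4.61% of all genes were. Without the lung of mouse B (13.2% of all genes called), Cd79a, Cd79b, Ms4a1, Jchain and Ltb were called, and without the PT of mouse B (8.05% called), whose background was high, Cd79a, Cd79b, Jchain, Mzb1 and Ltb were. Without the PT of mouse A (34.5% called), Cd79a, Cd79b and Ltb were called higher and Cr2 lower (log2 fold change -2.25, adjusted p = 0.0479 by edgeR). That fit sets the lungs against the PT of mouse B alone, where Cr2 was not read as expression.

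**Figure D2:**
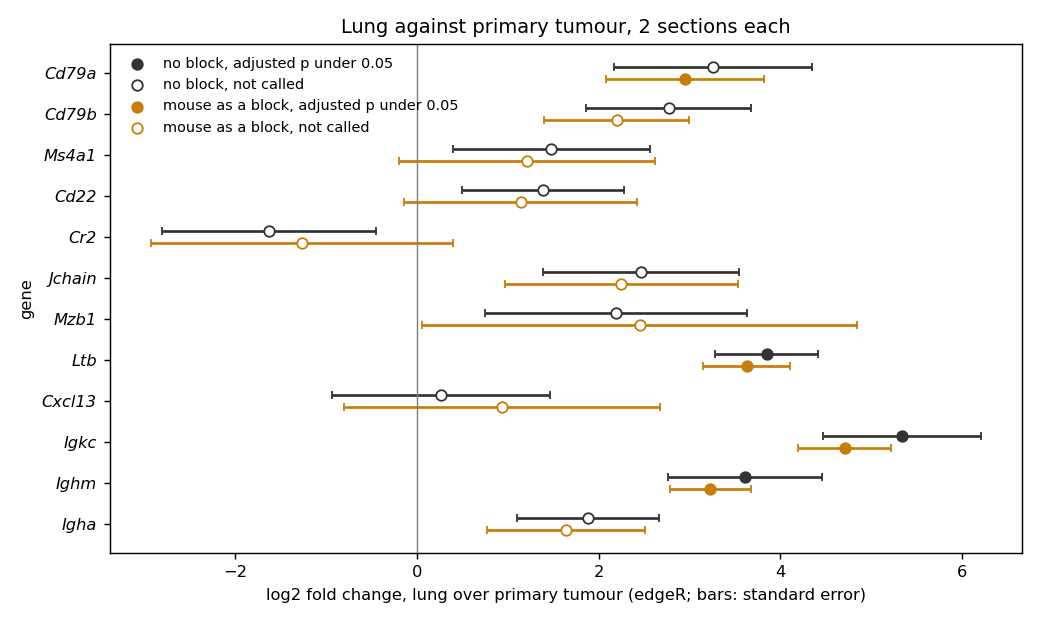
Log2 fold change of lung over PT for the 9 genes and for Igkc, Ighm and Igha, fitted by edgeR without (black) and with (orange) the mouse as a block. Bars are standard errors and filled points have an adjusted p under 0.05: Ltb, Igkc and Ighm in both models and Cd79a in the blocked one.

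Other B cell genes behaved unevenly. Of 18 further receptor and co-receptor genes tested, 3 rose in the lung and none fell, with a median log2 fold change of 0.97. For this and the next lists, 6.31% of all genes tested were called higher, or 9.17% with the mouse as a block. With the mouse as a block edgeR called 4, adding the kinase gene Btk, and DESeq2 called 6 higher. Those 3 were Cd37 (3.40), a tetraspanin of leukocytes, and the kinases Lyn (2.15) and Syk (2.08), with adjusted p-values of 0.0165, 0.0415 and 0.0328 by edgeR. All are shared with myeloid cells, and neutrophil markers were at 80615 and 32792 CPM in the lungs against 2536 and 11161 CPM in the PTs. Over 14 settings of this comparison, Cd37 and Syk were each called in 12 and Lyn in 9. Lyn was not called without the lung of mouse A or the PT of mouse B. The part of neutrophils in these rises, and in that of Ltb, was not tested. Of 11 B cell transcription factors tested none was called by edgeR, with 1 at an unadjusted p under 0.05 and 1 called by DESeq2. Pax5, the factor that fixes B cell identity, had a log2 fold change of 0.52 (adjusted p = 0.880). Of 9 germinal centre genes 1 rose, Efnb1 (log2 fold change 2.90, adjusted p = 0.00954 by edgeR), which encodes an ephrin that other cell types also make. Its call held in 13 of 14 settings.

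Among 23 further plasma cell genes tested, 4 rose and none fell, with a median log2 fold change of 0.46, when 6.31% of all genes were called higher. With the mouse as a block edgeR also called Ell2, an elongation factor gene of secretory plasma cells, lower, and DESeq2 called 5 higher and 2 lower. Igkc, the kappa light chain constant gene, was at 323 and 51.9 CPM in the lungs and 5.62 and 6.61 CPM in the PTs. The lungs lay above both PTs, and the log2 fold change was 5.34 (standard error 0.87, adjusted p = 0.00927 by edgeR). Ighm, the constant gene of IgM, was at 238 and 42.6 CPM in the lungs and 21.6 and 8.17 CPM in the PTs, again without overlap, and rose by 3.61 (standard error 0.85, adjusted p = 0.0340 by edgeR). After background subtraction neither was called (adjusted p = 0.116 for Igkc and 0.216 for Ighm by edgeR, log2 fold changes 6.42 and 3.94), nor was Ighm with library sizes only (0.105). Igkc, with 72 UMIs in the PT of mouse B, kept none there after the subtraction. Constant genes of immunoglobulins resemble one another, so that the split of probe counts between them is uncertain. The other 2 genes that rose were Herpud1 (1.82), a gene of endoplasmic reticulum stress, and Sec11c (log2 fold change 1.73), a subunit of the signal peptidase, both of which many secretory cells use. Neither was called without the PT of mouse B (adjusted p = 0.0701 and 0.350 by edgeR), nor was Sec11c without the lung of mouse A (0.0504). Xbp1 and Irf4, transcription factors of plasma cells, had log2 fold changes of 0.79 and 0.46, with adjusted p-values of 0.225 and 0.920 by edgeR. Igha, the constant gene of IgA, was at 28.1 and 7.44 CPM in the lungs and 3.40 and 9.37 CPM in the PTs and was not called (log2 fold change 1.88, adjusted p = 0.192 by edgeR).

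Of 20 genes of lymphoid organisation tested besides the members, 1 rose, a share close to the 6.31% of all genes. With the mouse as a block edgeR called 2, the other being Icam1, an adhesion molecule gene, and DESeq2 called 4. The gene that rose was Cxcl12, a chemokine of stromal cells, with 71.6 and 38.2 CPM in the lungs and 9.46 and 10.3 CPM in the PTs and a log2 fold change of 2.82 (adjusted p = 0.0102 by edgeR). Its call held in 13 of 14 settings. Partners of the members did not pass the test: Lta, which pairs with Ltb, had -1.76 (adjusted p = 0.520), the receptor gene Ltbr 1.02 (adjusted p = 0.186) and Cxcr5, the receptor of CXCL13, 0.08 (adjusted p = 0.984), all by edgeR. T cell markers summed to 896 and 344 CPM in the lungs and 230 and 270 CPM in the PTs. T cells also make Ltb, and their part in its rise was not tested.

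Among the members, the lungs of the 2 mice differed most in Cd79a, Cd79b and Ms4a1. The CPM of Cd79a in mouse A was 8.00 times that in mouse B (interval 6.76 to 9.49), that of Cd79b 7.01 times (5.90 to 8.35) and that of Ms4a1 7.02 times (5.44 to 9.15). Jchain and Cr2 followed with ratios of 6.34 and 4.64, then Mzb1 with 3.20 and Cd22 with 3.03. Without a set of 9 connected spots rich in Jchain, its level in mouse A was 12.8 CPM against 3.87 CPM in mouse B, a smaller ratio than that of Cr2. The ratio of Ltb was 2.60 (2.49 to 2.72). Cxcl13 was the only member with the opposite order, at 0.597 (0.409 to 0.853). Immunoglobulin genes had ratios of 6.61 for Ighd, 6.23 for Igkc, 5.59 for Ighm and 3.78 for Igha. With 1 section per mouse these ratios compare sections and have no test, and the share of carcinoma markers and the amount of airway tissue differed between the same sections, with airway markers at 1378 and 787 CPM. Their part in the ratios was not tested.

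Shares of spots told the same order. Cd79a had a UMI in 26.5% of the lung spots of mouse A and 5.79% of those of mouse B, and Jchain in 6.13% and 2.81%. Ltb was found in 83.0% and 67.3% of spots, and Cxcl13 in 1.83% and 5.32%. The 95th percentile of the receptor genes was 0.354% and 0.432% of spots. After thinning each spot to 1000 UMIs, 8 of the 9 members had the higher share in mouse A, with 4.86% against 0.541% for Cd79a, 29.2% against 13.5% for Ltb and 0.237% against 0.505% for Cxcl13. The deeper section was thus the one with the lower shares for all members but Cxcl13. Both lungs share 1458 spot barcodes, which mark positions on the slide and not cells.

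Within the lungs, the UMIs of Cd79a, Cd79b, Ms4a1 and Cd22 were summed per spot to look for B cell aggregates. In mouse A the sum was 0 in 48.1% of spots and never exceeded 5. In mouse B it was 0 in 83.2% of spots, and 1 spot held 24. A spot was called B-rich with at least 3 of these UMIs and at least 288.2 CPM, which is 4 times the mean of the lungs, and an aggregate was a connected set of at least 3 such spots. By this rule 93 spots (5.48%) of the lung of mouse A were B-rich and held 23.3% of its UMIs on the 4 genes, and 11 spots (0.396%) of the lung of mouse B held 10.4%. The PT of mouse A had 0 B-rich spots and that of mouse B had 3, with no aggregate.

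Few of the B-rich spots were connected. Mouse A had 4 aggregates of 6, 3, 3 and 3 spots, at grid rows 26 to 28, 31 to 32, 30 to 31 and 15 to 16. Together these 15 spots held 4.04% of the UMIs on the 4 genes. Genes that the rule did not use were not raised together. Ltb was at 298 against 343 CPM, Ighm at 196 against 238 CPM and the T cell markers at 981 against 895 CPM. Jchain, Mzb1 and Cxcl13 had 0 UMIs in these aggregates and Cr2 had 1. Since the cut is a count of 3 to 5 UMIs per spot, a set of this size is at the limit of what the depth can show.

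Mouse B had a single aggregate of 4 spots, at grid rows 21 to 23 and columns 95 to 98, with 8 UMIs of Cd79a, 5 of Cd79b, 3 of Cd22 and 0 of Ms4a1. This aggregate held 6 of the Cxcl13 UMIs, a level of 174 CPM (64.0 to 379.5) against 5.53 CPM in the rest of the section, and the ring of spots around it was at 115 CPM. Igkc was at 494 against 51.4 CPM and Ighm at 465 against 42.1 CPM, while Jchain had 0 UMIs. Airway markers were at 8340 against 778 CPM and smooth muscle markers at 1743 against 203 CPM. Adipocyte markers were at 1453 against 25.6 CPM and the T cell markers at 233 against 344 CPM. The aggregate lay beside a gap in the tissue, in spots rich in airway, smooth muscle and adipocyte transcripts, with Cxcl13 high and T cell markers no higher than elsewhere.

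The spot with the most B cell UMIs was in no aggregate. At row 41 and column 23 of the lung of mouse B, it held 7 UMIs of Cd79a, 5 of Cd79b, 9 of Ms4a1, 3 of Cd22, 7 of Cr2, 5 of Mzb1, and 2 of Jchain among 19950. It also held 24 UMIs of Igkc and 19 of Ighm, and 0 of Cxcl13. This spot carried 20.6% of the Cr2 UMIs of the section, and without it Cr2 fell from 1.12 to 0.893 CPM and Ms4a1 from 2.78 to 2.48 CPM. It was the only spot in either lung where Cr2 reached this count.

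**Figure D3:**
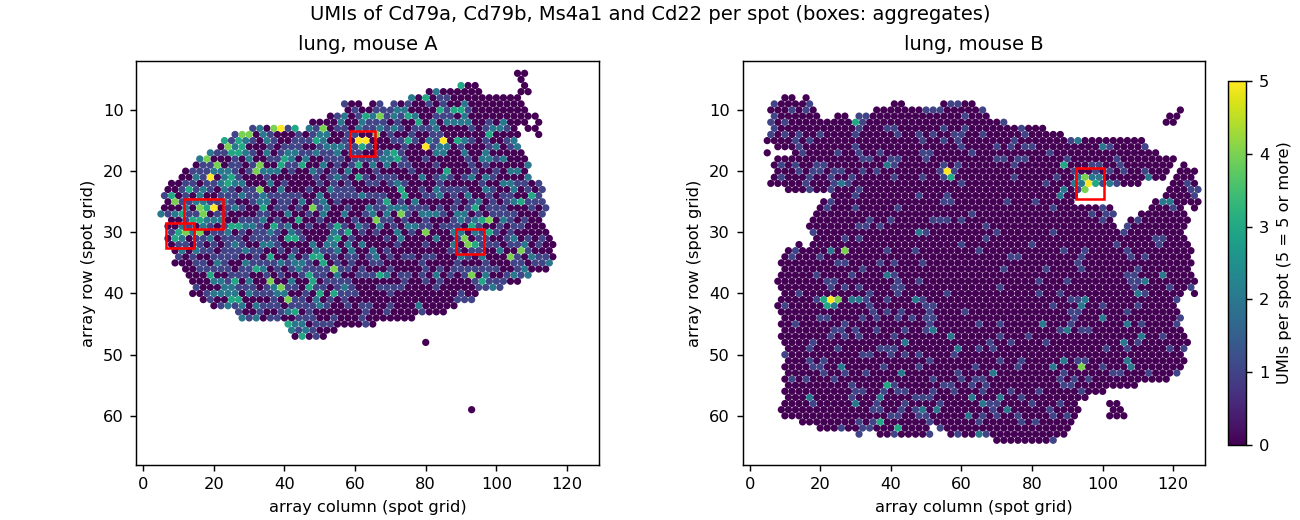
Summed UMIs of Cd79a, Cd79b, Ms4a1 and Cd22 per spot in the lungs, drawn on the spot grid, with colour capped at 5 and boxes around the aggregates. The lung of mouse A shows scattered spots over the section and 4 boxes, and the lung of mouse B shows 1 box.

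UMIs of Jchain were gathered in few spots. Of the spots with a Jchain UMI, 66.3% had a neighbour with one in mouse A against 19.3% of the spots without, and 46.1% against 11.95% in mouse B. Among single B cell genes these shares were 85.1% against 75.7% for Cd79a and 38.7% against 39.2% for Cd22 in mouse A. In mouse B the shares were 36.0% against 26.9% for Cd79a and 34.1% against 20.6% for Cd22. Mzb1 gave 25.6% against 24.8% in mouse A, and in mouse B 17.2% against 11.6%. These shares depend on how many spots hold a gene, so their differences were not compared between genes. Spots with at least 3 Jchain UMIs, a threshold chosen after the values were seen, numbered 21 in mouse A and held 64.5% of its Jchain UMIs. In mouse B there were 6 with 33.3%, and in the PTs 0, where no spot exceeded 2.

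The largest connected set of such spots held 9 spots at rows 16 to 19 and columns 69 to 73 of the lung of mouse A. Its spots had 5 to 46 Jchain UMIs each and together 132, which is 48.4% of the section. Of genes that the choice did not use, the set held 1066 UMIs of Igkc (29.7% of the section), 737 of Ighm (27.9%) and 340 of the joining segment Ighj4 (38.9%), but 0 of Igha and 4 of Mzb1. The 4 B cell genes had 13 UMIs in it. Its leading spot, at row 17 and column 71, held 46 UMIs of Jchain, 438 of Igkc, 286 of Ighm and 0 of Igha. Without the set the section's level went from 24.5 to 12.8 CPM for Jchain, from 323 to 228.5 for Igkc and from 238 to 173 for Ighm, which stay above the lung of mouse B.

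These spots were chosen on Jchain, so its level in them is fixed by the choice. Around them in mouse A Jchain went from 1056 CPM to 55.2, 18.4 and 4.98 CPM at 1, 2 and at least 3 grid steps. Igkc went from 7772 to 680.5, 251 and 176 CPM over the same distances. Airway markers went from 3859 to 2232, 1590 and 1260 CPM. In mouse B Igkc went from 3437 to 451, 67.3 and 39.7 CPM. Airway markers there were at 1574 CPM in the Jchain spots themselves and at 3474, 2689 and 716 CPM at 1, 2 and at least 3 steps. Summed over spots, airway markers were thus highest in the Jchain spots in mouse A and in the spots next to them in mouse B. Single Jchain spots of mouse A held 4 to 138 airway marker UMIs in the connected set and 0 to 64 outside it. The rings were not recomputed without that set.

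The heavy chain differed between these spots. In mouse A, 14 of the 21 were led by Ighm, with 782 UMIs of Ighm and 0 of Igha, 6 were led by Igha, with 87 UMIs of Igha and 5 of Ighm, and 1 had neither. Of the 14, 9 spots with 737 of the Ighm UMIs are the connected set, and the other 5 held 45, with a single Ighm UMI in 2 of them. In mouse B, 5 of the 6 were led by Ighm, with 233 UMIs of Ighm and 0 of Igha. Its leading spot, at row 28 and column 36, held 21 UMIs of Jchain, 122 of Igkc and 145 of Ighm. No spot led by Ighm held an Igha UMI in either lung, while 3 of the 6 spots led by Igha also held 1 or 2 Ighm UMIs. Spots with an Igha UMI had a neighbour with one in 71.2% of cases in mouse A, against 23.8% of the spots without. In mouse B these shares were 55.6% and 18.1%.

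**Figure D4:**
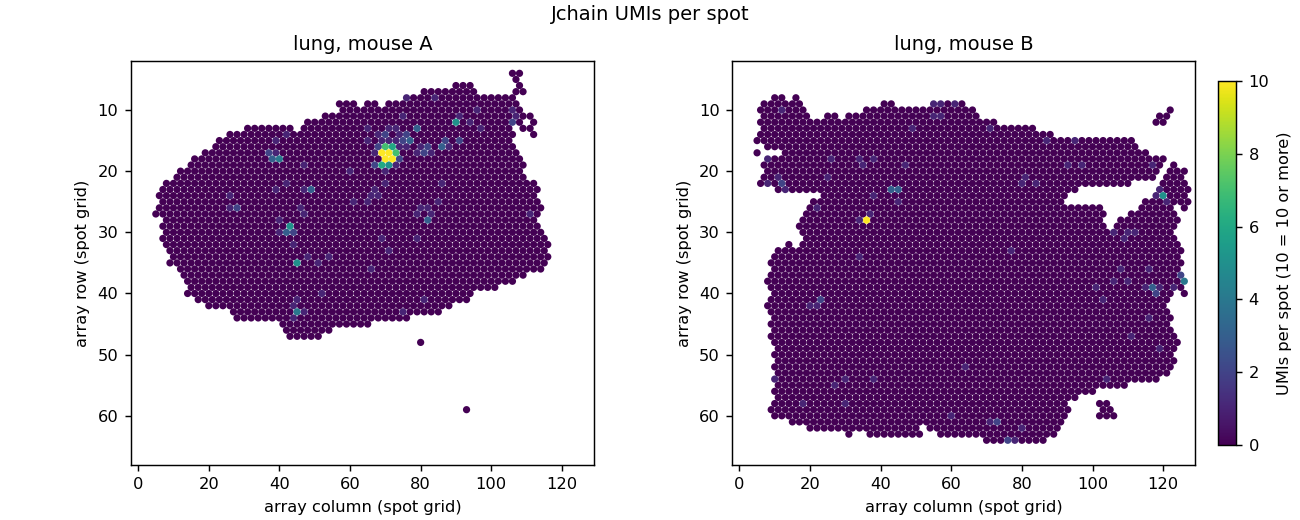
Jchain UMIs per spot in the lungs, drawn on the spot grid, with colour capped at 10. The lung of mouse A shows the set of 9 spots near row 17 and column 71, and the lung of mouse B shows its leading spot at row 28 and column 36.

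The surroundings of the members were described by ranking lung spots on marker lists and setting the top 10% against the rest. Jchain was higher in spots rich in airway markers, at 96.0 against 16.2 CPM in mouse A, and 9.56 against 3.45 CPM in mouse B, and in those rich in smooth muscle markers, at 141 against 11.04 and 9.68 against 3.47 CPM. Without the set of 9 spots the values in mouse A were 24.2 against 11.5 and 42.9 against 9.44 CPM, so the direction did not rest on it. In spots rich in adipocyte markers Jchain was at 285 against 12.3 CPM in mouse A (38.8 against 11.7 CPM without the set), and mouse B had 7.91 against 3.62 CPM. In alveolar spots it was at 24.7 against 24.5 CPM in mouse A, and at 1.07 against 4.16 CPM in mouse B. The values of mouse A rest on 30 Jchain UMIs in alveolar spots and 243 in the rest. They include the 132 of the set and were not recomputed without it. In both lungs Jchain was thus higher in spots rich in airway, smooth muscle or adipocyte transcripts. Alveolar spots were lower in mouse B, and the level values of mouse A depend on the set.

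Cxcl13 shared the smooth muscle surroundings, at 17.3 against 1.81 CPM in mouse A, and 16.8 against 4.95 CPM in mouse B. In spots rich in cardiac markers it was at 15.5 against 2.18 and 22.3 against 4.48 CPM, and in those rich in neutrophil markers at 0.832 against 3.73 and 3.40 against 5.89 CPM. Of the spots with a Cxcl13 UMI in mouse A, 35.5% had a neighbour with one, against 8.58% of the spots without. In mouse B these shares were 49.3% and 21.3%. Over spots, Cxcl13 and the summed B cell genes had Pearson correlations of -0.0137 (n = 1697) and 0.0774 (n = 2780), so that, the aggregate of mouse B aside, Cxcl13 did not follow the B cell genes.

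Ltb was spread over the lung. It was higher in spots rich in neutrophil markers, at 444 against 330.4 CPM in mouse A, and 311 against 118 CPM in mouse B, and in those rich in T cell markers, at 379 against 339 and 289.5 against 122 CPM. It was lower in spots rich in carcinoma markers, at 252 against 352 and 27.9 against 153 CPM, and in those rich in macrophage markers, at 244 against 352 and 61.2 against 144 CPM. Its correlation with the summed B cell genes over spots was 0.0248 and 0.0546. By its abundance, its spread and this weak relation, Ltb did not behave as a B cell gene in these sections.

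The summed B cell genes varied with the surroundings in both lungs. In mouse A the top 10% of spots ranged from 101 CPM (carcinoma markers, against 127 CPM in the rest) to 155 CPM (T cell markers, against 122 CPM). In mouse B they were lowest in spots rich in mesothelial and carcinoma markers, at 9.02 against 20.8 and 9.24 against 21.5 CPM. They were higher there in spots rich in adipocyte markers (38.4 against 18.2 CPM), smooth muscle markers (38.2 against 18.1 CPM), airway markers (33.9 against 18.3 CPM) and T cell markers (31.3 against 18.6 CPM). In mouse A the order was the opposite for smooth muscle (104 against 127 CPM) and airway markers (104 against 127 CPM), and adipocyte spots were at 120.4 against 124.9 CPM. Spots rich in T cell, cardiac (131.1 against 124.0 and 33.6 against 18.3 CPM) and endothelial markers (131.0 against 124.1 and 28.0 against 18.8 CPM) were higher in both lungs. Spots rich in carcinoma, mesothelial (112.0 against 126.1 CPM in mouse A) and macrophage markers (113.5 against 125.8 and 12.4 against 20.6 CPM) were lower in both. In mouse A the counting intervals of the top spots and the rest overlapped for each of these lists except the T cell markers (131.5 to 182.3 against 115.1 to 128.8 CPM).

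**Figure D5:**
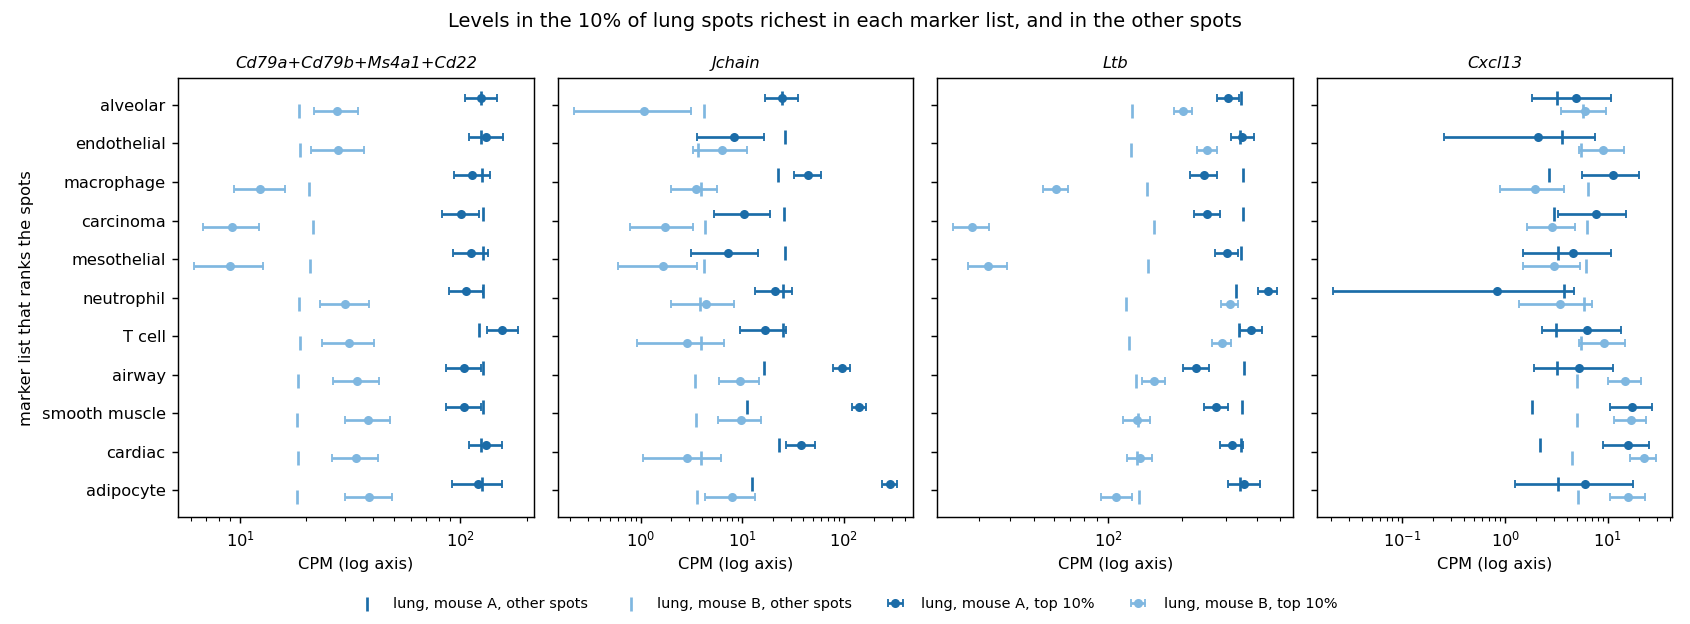
Levels of the summed B cell genes, Jchain, Ltb and Cxcl13 (CPM, log axis) in the 10% of lung spots richest in each marker list (points, with exact 95% intervals) and in the other spots (ticks), by mouse. Fewer spots than 10% enter for adipocyte markers because of ties. Jchain is higher in airway and smooth muscle spots and Ltb lower in carcinoma spots in both lungs.

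Outlines of the metastatic foci were not used here, so lung spots in the top 25% of the share of UMIs on carcinoma markers were set against the other lung spots. This class is a range of a score. In mouse A its limit corresponds to about a single carcinoma UMI per spot, so tumour content is poorly resolved there. Summed B cell genes were at 115.6 against 127.7 CPM in mouse A and at 11.8 against 24.4 CPM in mouse B. Cd79a was at 44.5 against 50.7 and 3.75 against 7.72 CPM, Jchain at 14.6 against 27.8 and 1.59 against 5.37 CPM, and Ltb at 286 against 361 and 39.1 against 192 CPM. Igkc was at 233 against 352 and 22.3 against 71.3 CPM. In all, 6 members were lower in the tumour-rich spots of both mice, and Cd79b, Cxcl13 and Cr2 had opposite directions in the mice. Cd79b in mouse A (43.0 against 42.8 CPM) and Cr2 in mouse B (1.17 against 1.09 CPM) were nearly level. The share of all genes lower in both mice was not set beside this count, so it is not read as particular to the members.

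None of these differences passed the test. Of 13536 genes tested by edgeR with Benjamini-Hochberg adjustment, 0 were called (a share of 0%), with 18 at an unadjusted p under 0.05, and DESeq2 called 0. With the mouse as a block, edgeR again called 0, with 1839 at an unadjusted p under 0.05. The blocked log2 fold change was -1.41 for Jchain (standard error 0.37, adjusted p = 0.338) and -1.41 for Ltb (standard error 0.59, adjusted p = 0.346). For Cd79a it was -0.68 (adjusted p = 0.347). The tumour-rich spots of mouse B were deeper than the others, with medians of 16560 and 8135 UMIs, and those of mouse A shallower, with 6016 and 6783.

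Genes with a like distribution over lung spots were ranked by the lower of the Pearson correlations in the 2 lungs. For the summed B cell genes the highest was Lcn2, which encodes an iron-binding protein of neutrophils and epithelium, with 0.108 and 0.106. The other 9 of the first 10 were Epas1, Lrg1, S100a8, S100a9, Chil1, Ngp, Gmfg, Ifitm1 and Ptprc, among them the neutrophil genes S100a8, S100a9 and Ngp. Ranked by neutrophil markers, however, the top 10% of spots had the lower sum of the B cell genes in mouse A, at 106.5 against 126.9 CPM, and the higher one in mouse B, at 30.1 against 18.6 CPM. For Jchain and Mzb1 together, Igkc led with 0.354 in mouse A and with 0.274 in mouse B, then Ighm with 0.281 and 0.198. They were followed by Sult1d1, a sulfotransferase gene (0.208 and 0.130), and Foxj1, the regulator of motile cilia (0.172 and 0.124), with the dynein genes Dnah12 and Dnah5, the ciliary gene Ccdc153, Gm19935 and Ighj4 among the first 10. Apart from the immunoglobulin genes, the correlations of both lists are weak for sparse counts and are given as a ranking only. The points share a section, and the correlations run over 1697 and 2780 spots that are not replicates.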

How the data were processed

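The authors deposited UMI counts per gene and spot, made with Space Ranger 2.0.0 on mm10 per the submitters' processing notes, with the grid position of each spot and no normalized values. Spots with over 200 genes were kept, and counts were summed per section. CPM was taken over all UMIs of the kept spots. Sums were compared in R 4.3.3 by edgeR 4.0.16 (TMM scaling, genes kept by filterByExpr, quasi-likelihood tests, adjusted p under 0.05 after Benjamini and Hochberg), with DESeq2 1.42.0 as an alternative. The tests were checked on simulated data. Python 3.11.15, numpy 2.4.6 and scipy 1.17.1 were used for the rest.

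The mouse number pairs sections, since both tissues come from the same animals. Deviations of same-numbered sections had a correlation of -0.293 for lung against PT and 0.767 for tumour-rich against other lung spots. The members, the marker lists and the tests were chosen with earlier results of these data known. The genes named are the members, up to 4 genes per list (those called with the largest change, then the most abundant), and the 10 genes most like each of the pair of sums. With 1 section per mouse and tissue, the p-values of the main fits draw on the spread between 2 animals and on that of the other genes. In the fits of lung against PT with a block, without a filter or without a section, edgeR gave a gene's own spread no weight. Those p-values rest on a spread pooled over genes. Depth ranged from 10890154 to 30240176 UMIs per section. Some genes that the rule names are not reported here.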

Additional observations from a re-analysis of the deposited data

How the results depend on the processing

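Ltb was called in 13 of 14 settings of the comparison of lung with PT (log2 fold change 2.97 to 4.66), the exception being subtraction of the receptor gene background. Cd79a and Cd79b were called in 6 of 14 and Jchain in 5. Scaling by library size alone moved the median of all genes from -0.00 to -0.31.

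The 1139 genes called became 328 with library sizes only, 2022 without a filter, 3827 with DESeq2 (1707 higher, 2120 lower), 1817 with the mouse as a replicate block, 98 after background subtraction and 2565 with the numbers crossed. The crossed pairing was chosen after seeing the data. Leaving out 1 section gave 883 to 6604, the highest without the PT of mouse A (1387 higher, 5217 lower), and 2519 without the lung of mouse B. The count for tumour-rich spots, 0, ranged from 0 to 15, the latter without the other spots of mouse B. Beyond Cd79a, the block changed no call of a member.

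The lowest and highest values without 1 section of the log2 fold changes against PT were -0.54 to 3.07 for Ms4a1, -0.34 to 2.50 for Cxcl13 and -3.09 to 0.82 for Cr2. Cxcl13 was -0.08 with library sizes only. In tumour-rich spots they were -3.12 to 1.62 for Cd79a, -3.29 to 1.46 for Cd79b, -2.67 to 1.44 for Ms4a1, -1.78 to 0.48 for Cd22, -3.54 to 0.54 for Jchain, -1.33 to 0.48 for Cxcl13 and -1.63 to 1.15 for Cr2. Above the 90th percentile Cxcl13 was 0.00.

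The 4 aggregates of mouse A became 7 at 2 times the mean, 0 at 8 times, 12 with at least 2 spots, 1 with at least 5 spots, 27 with at least 1 UMI and 0 with at least 5 UMIs. The 1 of mouse B became 0 at 8 times, 2 with at least 2 spots, 0 with at least 5 spots and 0 with at least 5 UMIs, and the PT of mouse B had 22 with at least 1 UMI. The cause was not tested.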
